A study of Mus musculus with 6 samples.

Results

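The 41 genes described here carry out or govern the burning of fatty acids and the making of ketone bodies in mouse liver. They were taken from a fixed list of gene symbols and matched by name to the probes of a gene expression array, and all 41 were found among the 19447 genes tested. Each of them was well above background on all 6 arrays. The list holds 2 regulators, 6 genes of fatty acid uptake and activation, 4 of the carnitine shuttle, 14 of mitochondrial oxidation, 3 of electron transfer, 8 of peroxisomal oxidation, 1 enzyme of ketone bodies, 2 pantetheinases and the kinase gene Pdk4.

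All mice were of the nude background. Such mice have no functional thymus and so few T cells, while their innate immune cells and B cells remain. One group received small extracellular vesicles (sEV) of the human colorectal cancer line SW620, as 10 tail vein injections of 20 µg each spread over 21 days. The control group received sterile PBS on the same schedule. There were 5 mice per group, of which 3 livers per group were put on 1-colour arrays. The labels give neither the age of the mice nor how the control livers were chosen, and the vesicles come from another species and from 1 cell line. The comparison asks how liver gene expression differs after repeated vesicle exposure without a tumour.

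Fatty acids enter hepatocytes, are joined to coenzyme A, and pass into mitochondria as carnitine esters, where a cycle of dehydrogenase, hydratase, dehydrogenase and thiolase steps shortens them to acetyl-CoA. Very long and branched chains are first shortened in peroxisomes by a parallel set of enzymes. During fasting the liver turns surplus acetyl-CoA into ketone bodies, and the nuclear receptor PPAR alpha, encoded by Ppara, switches on many genes of all of these steps.

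Values are normalized log2 signals, that is, the log2 of the processed signal minus the 75th percentile of log2 signal on the same array, so that a gene at 0 is as bright as that percentile. A gene was called higher or lower when limma's moderated test, adjusted by the Benjamini-Hochberg method over all 19447 genes, gave an adjusted p under 0.05. The 75th percentile lay at 440 to 506 signal units on the control arrays and 402 to 424 on the sEV arrays, and 49.9% to 54.7% of probes were well above background. All arrays were on 1 slide and scanned together. The controls and sEV liver 1 lay in slide row 1, and sEV livers 2 and 3 in row 2. Slide row is a property of the array position and says nothing of when the RNA was prepared. The reference transcripts Alb, Actb and Gapdh had log2 fold changes of 0.15, -0.07 and 0.15, and none passed the test. Alb and Gapdh turned negative under quantile normalization and with slide row as a block. Gapdh was 8.39, 8.49 and 8.43 in controls and 8.14, 8.83 and 8.80 in sEV livers. Alb was 9.38, 9.57 and 9.45 in controls and 9.32, 9.81 and 9.70 in sEV livers. In both, sEV liver 1 lay below all controls and sEV livers 2 and 3 above them. Actb was lowest in sEV liver 1 (7.73), with sEV livers 2 and 3 among the controls. Gapdh passed as higher in 1 of the 6 fits that leave out 1 liver (0.38, limma adjusted p of 0.0476).

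Ppara, the enzymes Acsl1, Acadl, Decr1 and Bdh1, and the pantetheinase genes Vnn1 and Vnn3 fell in the sEV livers, and the fatty acid transporter gene Cd36 rose. The falls ranged from 1.32-fold for Acadl to 3.88-fold for Vnn1. The other 33 members did not pass the test, and none of those had a log2 fold change larger in size than 0.45. The carnitine shuttle, electron transfer and peroxisomal groups had no called gene.

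In counts, 8 of the 41 members (19.5%) passed, against 16.9% of all genes tested, which is close to the background share. Only 1 member was higher (2.44%), against 8.82% of all genes, and 7 were lower (17.1%), against 8.11%. The fold change was negative in 27 members (65.9%), against 47.2% of all genes, and the median was -0.12, against 0.02. This shift did not set all controls apart from the sEV livers. In control liver 1 the median deviation of the 41 members from the control mean was -0.11, with 35 members below it. Controls 2 and 3 had 0.06 and 0.04, and the sEV livers -0.11, -0.12 and -0.11, with 25, 28 and 25 members below. In 21 members (51.2%, against 40.8% of all genes) the values of the groups did not overlap, 14 of them lower and 7 higher in sEV livers. When slide row entered the fit as a block, in which the contrast rests on sEV liver 1 within row 1, Vnn1 was the 1 member that passed, and 3.71% of all genes passed.

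**Figure D1:**
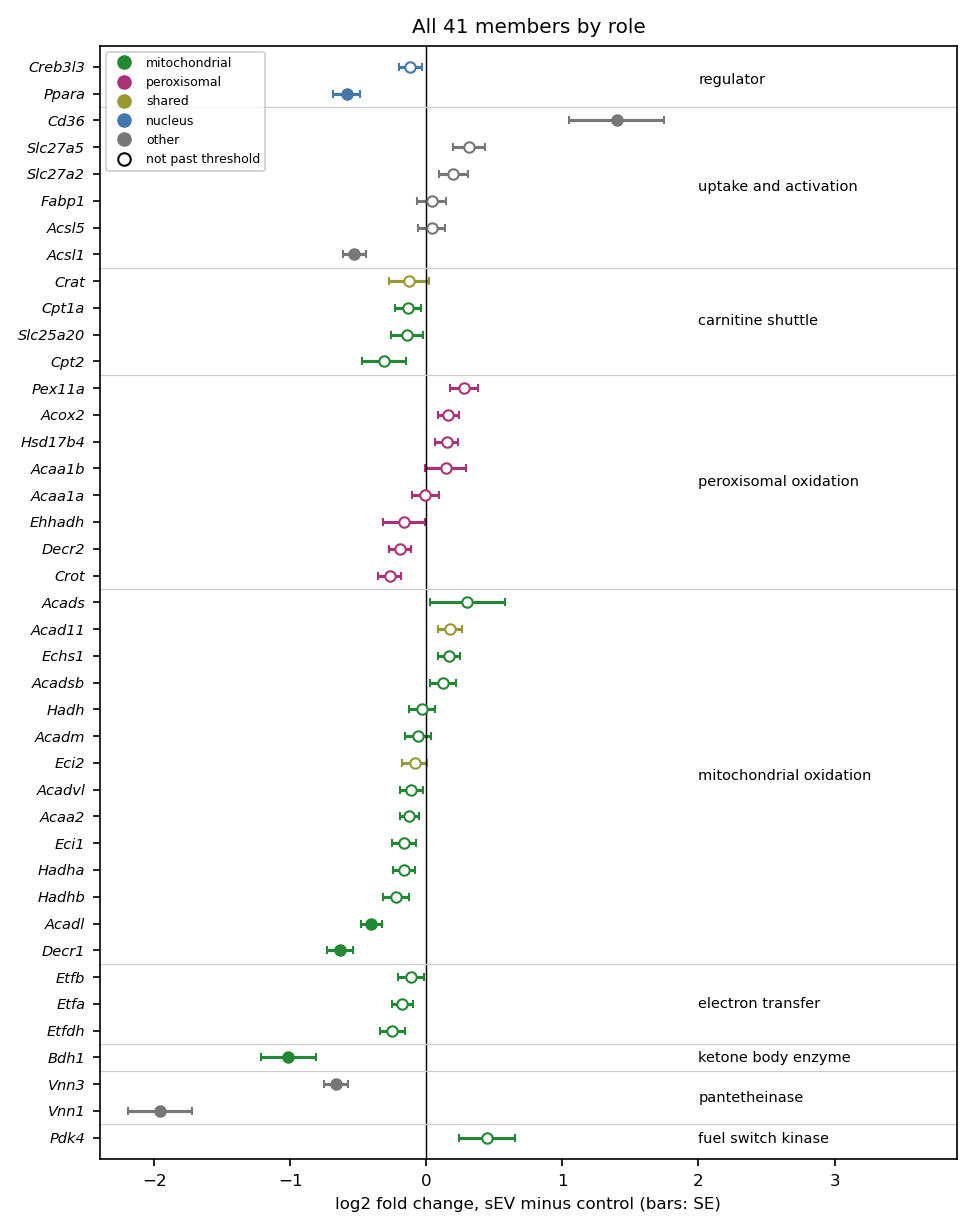
Log2 fold change, sEV minus control, for all 41 members grouped by role, with bars giving the standard error and colours the compartment. Filled points passed the limma test. Vnn1 at -1.96 and Cd36 at 1.40 are the extremes, and the peroxisomal members lie between -0.27 and 0.28.

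Ppara encodes the receptor that senses fatty acids and drives the genes of their oxidation. Its normalized log2 signal was 5.01, 5.02 and 4.95 in the control livers and 4.30, 4.35 and 4.59 in the sEV livers. All sEV livers lay below all controls, with sEV liver 3 the closest to them. The log2 fold change was -0.59 ± 0.10 (SE, n = 3 per group), a 1.5-fold fall with a limma adjusted p of 0.0167. Its probe lies at chr15:85632110-85632169 on the plus strand of mm9, and a second probe, at chr15:85637193-85637252, fell by 0.75 with an adjusted p of 0.00698 in the fit of single probes. With no filter on dim probes Ppara did not pass (adjusted p of 0.0784). The call ended without control liver 1 or 2 or sEV liver 2 (adjusted p of 0.0560, 0.0560 and 0.0525) and in the fit with the row as a block (-0.70, adjusted p of 0.0633).

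Creb3l3, a membrane-bound factor of the fasted liver that works together with PPAR alpha, did not pass. Its values were 6.67, 6.85 and 6.84 in controls and 6.64, 6.68 and 6.68 in sEV livers, where control liver 1 lay among the sEV values. Its log2 fold change was -0.12 ± 0.08 (adjusted p of 0.368).

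The promoter windows of members with an entry in the RefSeq tables are shown next, because Ppara encodes a factor that reads DNA and several members with different responses can be set side by side. Windows were the 250 bases before an annotated start on GRCm38.p6, and 35 of the 41 members had one, giving 39 windows. For some members this start lies inside the full span of the gene, so the window need not be before its outermost start. Both strands were searched for AGGTCA, the core element of nuclear receptors, for the paired element of PPAR receptors, here 2 copies of AGGTCA in 1 direction with 1 base between them, for its looser form with AGGNCA in place of AGGTCA, either of which can contain AGGTCA, and for GGGCGG, the core of the GC box. Capitals mark AGGTCA, the looser pair and GGGCGG on either strand. The window of Ppara lies at chr15:85735526-85735775 (plus), that of Cd36 at chr5:17835897-17836146 (minus) and that of Fabp1 at chr6:71199629-71199878 (plus). Those of Acsl1, Acadl and Vnn3 lie at chr8:46470787-46471036 (plus), chr1:66863310-66863559 (minus) and chr10:23851212-23851461 (plus). The windows of Ppara and Cd36 lie inside the gene spans, which are chr15:85734910-85806851 and chr5:17781690-17888959.
Ppara: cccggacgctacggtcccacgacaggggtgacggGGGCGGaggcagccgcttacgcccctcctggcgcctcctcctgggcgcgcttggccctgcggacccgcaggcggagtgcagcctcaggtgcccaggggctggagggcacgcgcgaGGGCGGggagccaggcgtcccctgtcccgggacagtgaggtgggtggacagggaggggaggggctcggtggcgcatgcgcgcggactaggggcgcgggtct
Cd36: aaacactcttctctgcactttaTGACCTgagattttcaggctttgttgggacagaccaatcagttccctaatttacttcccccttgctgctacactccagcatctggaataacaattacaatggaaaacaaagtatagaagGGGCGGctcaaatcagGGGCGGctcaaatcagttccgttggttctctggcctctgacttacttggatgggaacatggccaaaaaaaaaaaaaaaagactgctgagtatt
Fabp1: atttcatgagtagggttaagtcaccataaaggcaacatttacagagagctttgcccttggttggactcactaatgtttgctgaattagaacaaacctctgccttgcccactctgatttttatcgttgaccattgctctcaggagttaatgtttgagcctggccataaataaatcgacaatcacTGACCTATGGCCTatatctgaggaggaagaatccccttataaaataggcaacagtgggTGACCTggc
Acsl1: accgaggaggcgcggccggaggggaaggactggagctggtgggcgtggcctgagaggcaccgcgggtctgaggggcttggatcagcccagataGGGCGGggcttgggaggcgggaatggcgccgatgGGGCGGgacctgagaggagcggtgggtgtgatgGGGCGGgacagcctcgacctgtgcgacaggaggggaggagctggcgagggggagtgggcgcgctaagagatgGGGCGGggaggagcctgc
Acadl: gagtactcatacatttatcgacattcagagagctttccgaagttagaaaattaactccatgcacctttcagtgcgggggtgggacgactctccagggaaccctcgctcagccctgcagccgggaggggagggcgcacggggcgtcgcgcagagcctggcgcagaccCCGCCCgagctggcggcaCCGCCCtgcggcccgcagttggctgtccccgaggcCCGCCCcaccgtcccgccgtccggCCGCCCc
Vnn3: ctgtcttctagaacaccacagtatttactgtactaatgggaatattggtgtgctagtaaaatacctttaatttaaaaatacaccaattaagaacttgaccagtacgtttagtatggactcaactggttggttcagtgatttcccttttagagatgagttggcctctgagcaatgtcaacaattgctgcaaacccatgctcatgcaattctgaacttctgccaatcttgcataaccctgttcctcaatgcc
The printed windows of Acsl1 and Acadl, which fell, held 4 GC boxes each, and that of Ppara, which fell too, held 2. The window of Cd36, which rose, held 2 as well, and neither window of Bdh1, which fell, held any. The relation of GC boxes to the fold changes was not tested. A second Acsl1 window, at chr8:46490716-46490965, held none and had a GC content of 48.4%. The Vnn3 window held none and had a GC content of 39.2%, against 76.4% for Ppara. Across members, GGGCGG was present in 21 of 39 windows (53.8%), against 32.7% of all 32851 windows in the table. AGGTCA was present in 8 of 39 (20.5%), against 14% of all windows: those of Acadm, Acadvl, Cd36, Cpt1a, Creb3l3, Echs1, Fabp1 and Slc27a2. The looser paired element was in 1 member window, that of Fabp1, as TGACCTATGGCCT starting 67 bases before the annotated start, and in 0.338% of all windows. The exact paired element was in no member window and in 0.0335% of all windows. No window of Ppara, Acsl1, Acadl, Bdh1 or Vnn3 held AGGTCA, which says only that these letters are not within those 250 bases. Vnn1, Decr1, Crat, Acaa2, Hsd17b4 and Slc27a5 had no window.

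Among the 6 genes of uptake and activation, 1 rose and 1 fell. Cd36 encodes a scavenger receptor that carries long-chain fatty acids across the plasma membrane, and it is made by macrophages and endothelial cells as well as hepatocytes. Its signal was -1.10, -0.27 and 0.37 in controls and 1.103, 0.96 and 1.13 in sEV livers. The sEV livers were tightly grouped above all controls, and the controls were spread over more than the gap between the groups. Cd36 thus rose by 1.40 ± 0.35 on the log2 scale, or 2.64-fold, with an adjusted p of 0.0416 (probe at chr5:17288600-17288659, minus strand, mm9).

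The Cd36 call rested on the full set of livers: it held without control liver 3 (1.75, adjusted p of 0.0208) and ended when any other liver was left out (1.01 to 1.45, adjusted p of 0.0527 to 0.106). It also ended with no filter on dim probes (adjusted p of 0.120). With slide row as a block the value was 1.44 with an adjusted p of 0.197. The summed scaled signal of 10 Kupffer cell and macrophage markers was 98.8 to 132 in controls and 145 to 158 in sEV livers. Of these 10 markers, 6 rose (60%, against 8.82% of all genes). The sum of 7 endothelial markers was 35.7 to 52.4 in controls and 34.8 to 43.5 in sEV livers. None of the 7 passed, with 1 at an unadjusted p under 0.05. The part of these cells in the Cd36 result was not tested, and in whole liver a change in the number of cells of a type and a change in RNA per cell cannot be told apart.

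Acsl1 encodes the main long-chain acyl-CoA synthetase of liver, which joins the fatty acid to coenzyme A. Its signal was 6.70, 6.85 and 6.83 in controls and 6.27, 6.33 and 6.20 in sEV livers. The groups were separate, and each varied little within itself. Acsl1 fell by 0.53 ± 0.08 on the log2 scale, or 1.44-fold, with an adjusted p of 0.0135. Its probe lies at chr8:47621232-47621291 (plus strand, mm9), and a second probe in the same gene fell by 0.46 (adjusted p of 0.0287), while another, well above background on 4 of 6 arrays, gave -0.97 with an adjusted p of 0.401. The call held with any 1 liver left out, but not with no filter on dim probes (adjusted p of 0.0761). It ended with the mean of all probes (-0.65, adjusted p of 0.115) and in the fit with the row as a block (-0.53, adjusted p of 0.0942).

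The other activation and uptake genes did not pass. Fabp1, the cytosolic fatty acid binding protein of liver, had a log2 fold change of 0.04 ± 0.11. Slc27a2 and Slc27a5, transport proteins with acyl-CoA synthetase activity, had values of 0.20 and 0.31. Slc27a5 was higher in every sEV liver (8.49, 8.64 and 8.58) than in any control (8.10, 8.47 and 8.19), with an adjusted p of 0.121. Acsl5, another acyl-CoA synthetase, gave 0.04. A second, much dimmer probe of Acsl5 (mean log2 signal of -2.16, against 4.48) gave 0.38 with an adjusted p of 0.0472, so its probes differed.

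By their brightest probes the 4 carnitine shuttle genes had negative values, and none passed by limma, nor did any have an unadjusted p under 0.05. Cpt1a encodes the outer membrane transferase that sets the rate at which fatty acids enter mitochondria. It measured 5.49, 5.46 and 5.47 in controls and 5.34, 5.20 and 5.49 in sEV livers. Liver 3 of the sEV group reached the control level while the other two lay below. This gave a log2 fold change of -0.13 ± 0.10 (adjusted p of 0.380). Slc25a20, the carrier across the inner membrane, gave -0.14, Crat, which moves short acyl groups, gave -0.13, and Cpt2, the inner membrane transferase, gave -0.31 ± 0.16. Second probes pointed the other way, at 0.25 for Crat and 0.11 for Cpt2, but they were much dimmer. Their mean log2 signals were -3.29, against 2.55 for the brightest Crat probe, and 0.13, against 5.73 for that of Cpt2. With the mean of probes Crat turned to 0.059 and Cpt2 shrank to -0.10.

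Of 14 genes of mitochondrial oxidation, 2 fell, none rose and 10 had negative values; the 14.3% called is below the 16.9% of all genes. Decr1, the mitochondrial dienoyl-CoA reductase needed to oxidise polyunsaturated fatty acids, measured 6.91, 7.16 and 6.97 in controls and 6.41, 6.37 and 6.35 in sEV livers. The sEV livers were within a narrow band below all controls. It fell by 0.63 ± 0.09 on the log2 scale, or 1.55-fold, with an adjusted p of 0.0105 (probe at chr4:15846075-15846134, minus strand, mm9). With no filter on dim probes the Decr1 call ended (adjusted p of 0.0585). The call held with any 1 liver left out and ended in the fit with the row as a block (-0.60, adjusted p of 0.0870).

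Acadl, the long-chain acyl-CoA dehydrogenase, measured 4.78, 4.85 and 4.91 in controls and 4.45, 4.43 and 4.45 in sEV livers. The groups did not overlap, although the difference was the smallest among called members. Acadl fell by 0.40 ± 0.08 on the log2 scale, or 1.32-fold, with an adjusted p of 0.0210 (probe at chr1:66877452-66877511, minus strand, mm9). With no filter on dim probes Acadl did not pass (adjusted p of 0.111). The call ended without control liver 2 or 3 or sEV liver 2 or 3 (adjusted p of 0.0614, 0.0743, 0.0638 and 0.0635) and in the fit with the row as a block (-0.40, adjusted p of 0.131).

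The dehydrogenases of other chain lengths did not pass. Acadvl, for very long chains, gave -0.11, Acadm, for medium chains, gave -0.06, and Acads, for short chains, gave 0.30 ± 0.27. The Acads value varied from 3.47 in control liver 1 to 4.55 in sEV liver 2. Acadsb, which acts on short branched chains, gave 0.12, and Acad11 gave 0.17.

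The downstream steps were mixed in sign. Hadha and Hadhb encode the subunits of the mitochondrial trifunctional protein and lie next to each other on opposite strands, with promoter windows that overlap by 228 bases. They gave -0.17 and -0.22 with adjusted p of 0.206 and 0.167. Hadha was lower in every sEV liver (2.32, 2.42 and 2.37) than in any control (2.48, 2.52 and 2.62), whereas Hadhb overlapped between groups. Acaa2, the mitochondrial thiolase, measured 8.76, 8.78 and 8.79 in controls and 8.65, 8.64 and 8.68 in sEV livers, a separation with a log2 fold change of only -0.13 and an adjusted p of 0.273. Echs1, the hydratase for short chains, gave 0.17, Hadh, the dehydrogenase that follows it, gave -0.03, and the isomerase genes Eci1 and Eci2 gave -0.16 and -0.09. A second, dimmer Echs1 probe (mean log2 signal of 1.99, against 5.74) gave -0.08, and the mean of the Echs1 probes was 0.04.

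The 3 genes that pass electrons from the acyl-CoA dehydrogenases to the respiratory chain all had negative values and none passed, with 1 at an unadjusted p under 0.05. Etfdh, the inner membrane oxidoreductase, gave -0.25 ± 0.09 (adjusted p of 0.115) and was lower in every sEV liver (5.51, 5.51 and 5.46) than in any control (5.61, 5.86 and 5.75). Etfa and Etfb, the subunits of the electron carrier, gave -0.18 and -0.11. Under quantile normalization all 3 passed as lower, together with Acaa2 and Acadvl, so that 12 members were lower. Members that did not pass moved down too, such as Fabp1 (0.04 to -0.21), Acaa1a (-0.01 to -0.20) and Slc27a5 (0.31 to 0.04).

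Bdh1, the mitochondrial enzyme that interconverts acetoacetate and beta-hydroxybutyrate, fell. Its signal was 5.93, 6.26 and 6.34 in controls and 5.32, 5.41 and 4.75 in sEV livers. Every sEV liver lay below every control, with sEV liver 3 the lowest of all. Bdh1 fell by 1.02 ± 0.20 on the log2 scale, or 2.02-fold, with an adjusted p of 0.0230 (probe at chr16:31457378-31457437, plus strand, mm9). A second probe, at chr16:31457249-31457308, fell by 1.01 with an adjusted p of 0.0186. With no filter on dim probes Bdh1 did not pass (adjusted p of 0.0816). The call ended without control liver 2 or 3 (adjusted p of 0.0729 and 0.0711) and in the fit with the row as a block (-0.86, adjusted p of 0.173).

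The pantetheinases Vnn1 and Vnn3 release pantothenate, the precursor of coenzyme A. The relation of the Ppara fall to the values of other genes was not tested. Vnn1 had the largest fall of all members. Its signal was 0.50, 0.58 and 0.99 in controls and -1.72, -1.17 and -0.90 in sEV livers. The gap between the groups exceeded the spread within either. The log2 fold change was -1.96 ± 0.24, a 3.88-fold fall with an adjusted p of 0.00575 (probe at chr10:23624524-23624583, plus strand, mm9). Vnn1 passed under every alternative tried, with values from -2.41 in the row block fit (adjusted p of 0.0123) to -1.57 with normexp background correction.

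Vnn3, the neighbouring gene, measured 1.84, 1.89 and 1.90 in controls and 1.27, 1.09 and 1.29 in sEV livers. The controls agreed closely, and all sEV livers lay below them. It fell by 0.66 ± 0.09 on the log2 scale, or 1.58-fold, with an adjusted p of 0.00779. The call held with any 1 liver left out and ended in the fit with the row as a block (-0.61, adjusted p of 0.0740).

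**Figure D2:**
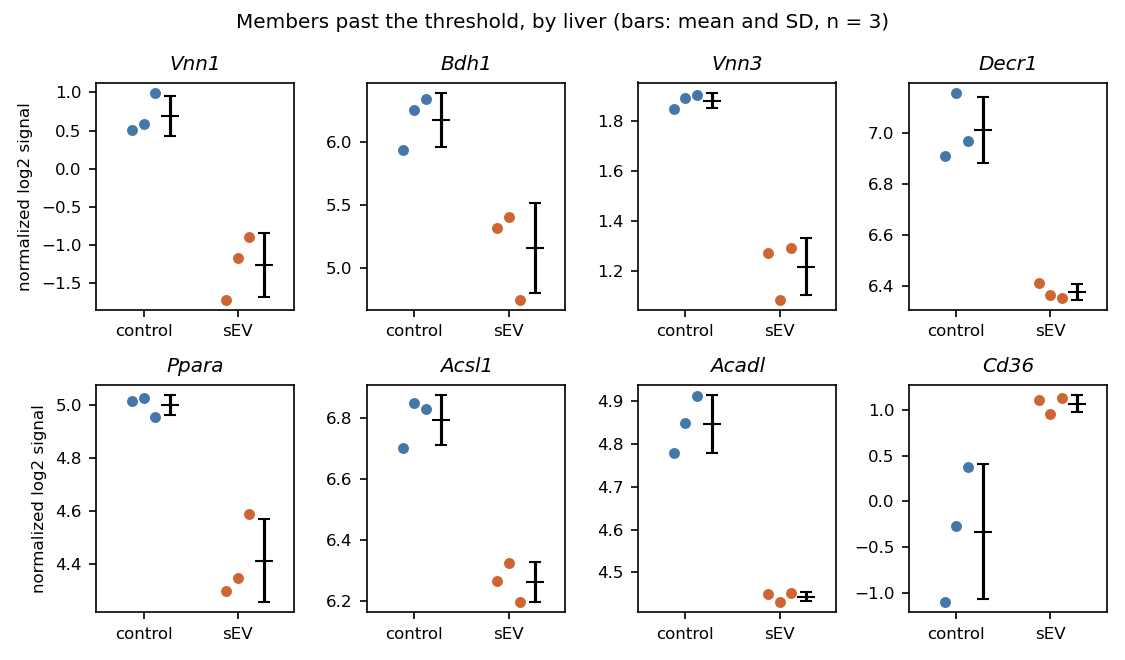
Normalized log2 signal of the 8 called members in each liver, control and sEV, with bars giving the mean and SD (n = 3). Cd36 is the only one of the 8 that is higher in sEV livers, and its control livers run from -1.10 to 0.37.

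**Figure D3:**
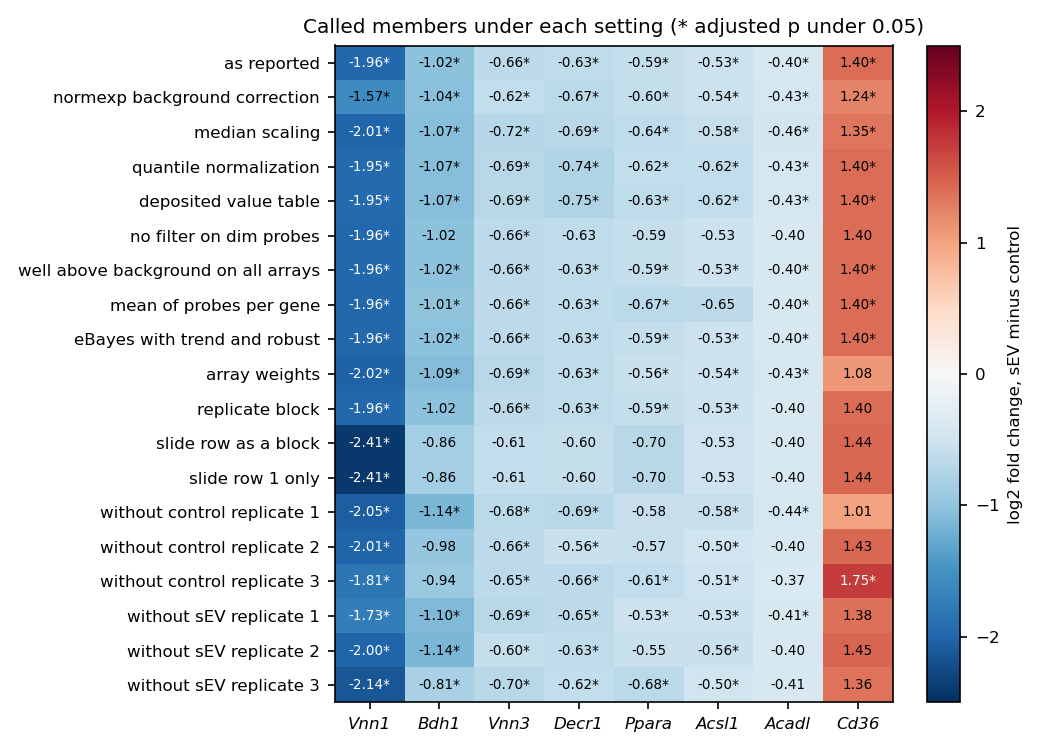
Log2 fold change of the called members under each processing alternative, with colour giving the value and a mark where the limma adjusted p was under 0.05. Vnn1 keeps its call throughout, and Cd36 loses it under 10 of 18 alternatives.

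None of the 8 peroxisomal members passed by limma, and 2 had an unadjusted p under 0.05. Acaa1a and Acaa1b, closely related neighbouring genes for the peroxisomal thiolases whose probes may not tell them apart, are the last step of the cycle. Acaa1a measured 7.34, 7.55 and 7.61 in controls and 7.43, 7.49 and 7.56 in sEV livers, and Acaa1b measured 5.74, 6.07 and 6.19 and then 6.25, 6.24 and 5.95. In both genes the groups overlapped. The log2 fold changes were -0.01 ± 0.10 for Acaa1a, which turned to 0.02 with the mean of its probes, and 0.14 ± 0.15 for Acaa1b (adjusted p of 0.968 and 0.542).

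The other peroxisomal genes split in sign. Crot, which makes carnitine esters of medium-chain products for export, was the nearest to the threshold, at -0.27 ± 0.09 with an adjusted p of 0.0815. It was lower in every sEV liver (5.63, 5.80 and 5.73) than in any control (6.05, 6.01 and 5.92). Crot passed as lower with limma's trend and robust options (adjusted p of 0.0410). A second, much dimmer probe of Crot (mean log2 signal of 0.58, against 5.86) gave 0.12, and the mean of probes gave -0.074. Decr2, the peroxisomal dienoyl-CoA reductase, gave -0.19 and Ehhadh, the bifunctional enzyme, gave -0.16 ± 0.15. On the other side, Acox2, the oxidase for branched chains and bile acid precursors, gave 0.16, Hsd17b4, another bifunctional enzyme, gave 0.15, and Pex11a, which helps peroxisomes divide, gave 0.28 ± 0.10 with an adjusted p of 0.122.

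Set side by side, the 20 mitochondrial members had 3 lower calls (15.0%) and 16 negative values (80.0%), with a median log2 fold change of -0.14 and a range of -1.02 to 0.45. The 8 peroxisomal members had 0 calls and 4 negative values, with a median of 0.07 and a range of -0.27 to 0.28. The groups did not overlap in 9 mitochondrial members, 8 of them lower in sEV livers, and in 5 peroxisomal members, 2 of them lower. These are 45.0% and 62.5%, against 40.8% of all genes, so that the peroxisomal share was the higher, and the mitochondrial share of calls was close to the 16.9% of all genes. A further 3 members with a place in both organelles, Crat, Acad11 and Eci2, had no call.

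Within each liver, the median deviation from the control mean was computed over each compartment. For mitochondrial members it was -0.11, 0.07 and 0.05 in controls and -0.13, -0.14 and -0.15 in sEV livers. Control liver 1 thus lay close to the sEV livers, and 19 of its 20 mitochondrial members were below the control mean, against 14, 16 and 15 in the sEV livers. For peroxisomal members the deviation was -0.09, 0.03 and 0.06 in controls and 0.13, 0.08 and 0.003 in sEV livers.

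Control liver 1 was also the lowest control for peroxisomal members, so that the difference between compartments within a liver left it beside the other controls. The mitochondrial minus the peroxisomal median was -0.02, 0.04 and -0.02 in controls and -0.26, -0.22 and -0.15 in sEV livers. These values did not overlap, and no test was made of them. Under quantile normalization the medians were -0.24 for mitochondrial and -0.06 for peroxisomal members, so the peroxisomal median changed sign while the order stayed. Without control liver 1 the peroxisomal median was -0.04.

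**Figure D4:**
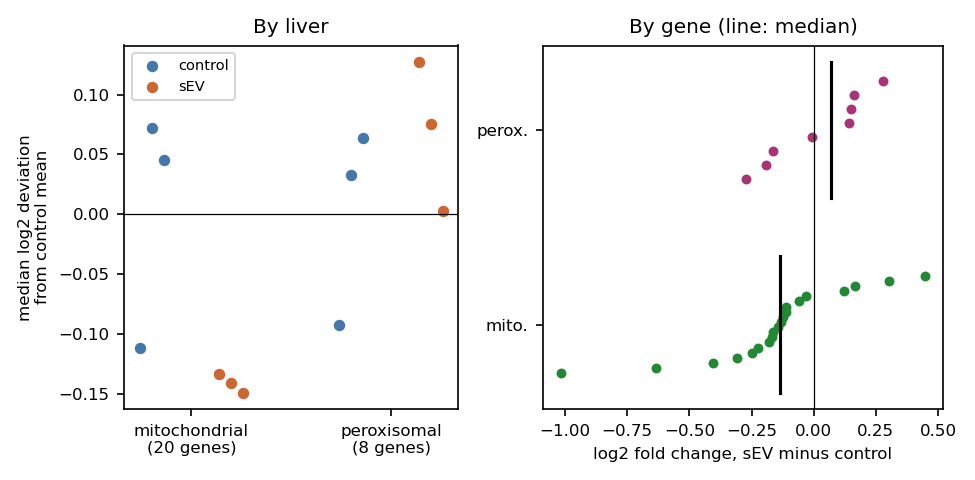
Median deviation from the control mean, in normalized log2 units, over the 20 mitochondrial and the 8 peroxisomal members in each liver (left), and the log2 fold change of each of these genes with the median as a line (right). The sEV livers lie at -0.13 to -0.15 for mitochondrial members and at 0.003 to 0.13 for peroxisomal members, and control liver 1 is low for both.

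Pdk4, the kinase that turns off pyruvate dehydrogenase and so favours fat over glucose as fuel, did not pass. It measured -0.35, -0.16 and -0.27 in controls and 0.48, -0.29 and 0.37 in sEV livers. Liver 2 of the sEV group lay among the controls while the other two were above them. Its log2 fold change was 0.45 ± 0.21 with an adjusted p of 0.186. Without sEV liver 2 it was 0.69, with an adjusted p of 0.0261.

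Other genes of oxidation and ketone body metabolism were read from a separate list of 45, of which 44 were measured. Of these, 3 were higher and 6 lower (20.5% called, against 16.9% of all genes), with a median of 0.11. By the rule for naming genes, the calls to describe were Pnpla2, Fabp2, Acsl3 and Acat1. Pnpla2, the lipase that opens triglyceride stores, measured 2.82, 2.85 and 2.80 in controls and 3.70, 3.51 and 3.71 in sEV livers, a log2 rise of 0.82 ± 0.09 with an adjusted p of 0.00437. Fabp2, a fatty acid binding protein best known from intestine, fell by 1.11 ± 0.12 (adjusted p of 0.00462). Acsl3, an acyl-CoA synthetase of lipid droplets, fell 2.83-fold (adjusted p of 0.00609), a call that ended when its probes were averaged (adjusted p of 0.130).

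Acat1, the mitochondrial thiolase that acts in both ketone body synthesis and use, fell as Bdh1 did. It measured 4.55, 4.73 and 4.69 in controls and 3.86, 4.01 and 3.72 in sEV livers, with no overlap. The fall was 1.73-fold, with a log2 fold change of -0.79 ± 0.11 and an adjusted p of 0.00769. The Acat1 call ended under 2 of 18 alternatives.

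The further called genes of the list, chosen for mention after their values were seen, were Acacb and Slc27a1, which rose by 0.50 and 1.08 on the log2 scale, and Cpt1b, Abcd2 and Slc16a1, which fell by 0.58, 0.75 and 0.49. Of the 6 fits that leave out 1 liver, the call held in 2 for Acacb, 1 for Slc27a1, 1 for Cpt1b, 2 for Abcd2 and 0 for Slc16a1, and Cpt1b was -0.24 with normexp background correction.

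Among 31 of 32 listed regulators of fatty acid oxidation that were measured, 6 rose and 1 fell (22.6% called, against 16.9% of all genes), with a median of 0.18. Ppard, which encodes the related receptor PPAR delta, measured 0.27, 0.04 and -0.07 in controls and 1.47, 1.70 and 1.61 in sEV livers. All sEV livers lay well above all controls, the opposite direction to Ppara. The log2 fold change was 1.52 ± 0.12 with an adjusted p of 0.00143, and the call held with any 1 liver left out (adjusted p of 0.00465 to 0.0123).

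Plin5, which coats lipid droplets and ties them to mitochondria, measured 4.83, 4.86 and 5.02 in controls and 6.31, 5.85 and 5.73 in sEV livers, a log2 rise of 1.06 ± 0.16 with an adjusted p of 0.0118. Tfeb, a regulator of lysosome genes and lipid breakdown, rose by 0.64 ± 0.08 (adjusted p of 0.00769). Its call ended under 3 of 18 alternatives, and its values ran from 0.32 to 0.68. Hnf4a, a hepatocyte transcription factor that is also on the hepatocyte marker list, rose by 0.53 ± 0.10 (adjusted p of 0.0201). Nr1d1 and Esrra, named after their values were seen, rose by 0.65 and 0.53. With 1 liver left out, the call held in 3 of 6 fits for Hnf4a and in 1 of 6 each for Nr1d1 and Esrra.

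Fgf21, a hormone that the liver makes in fasting, was the 1 regulator that fell and was also named after its values were seen. It measured 0.73, 0.10 and -0.45 in controls and -1.99, -2.19 and -0.92 in sEV livers. The groups did not overlap, but each was widely spread. The log2 fold change was -1.82 ± 0.42 with an adjusted p of 0.0333, and the call held in 2 of the 6 fits that leave out 1 liver.

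**Figure D5:**
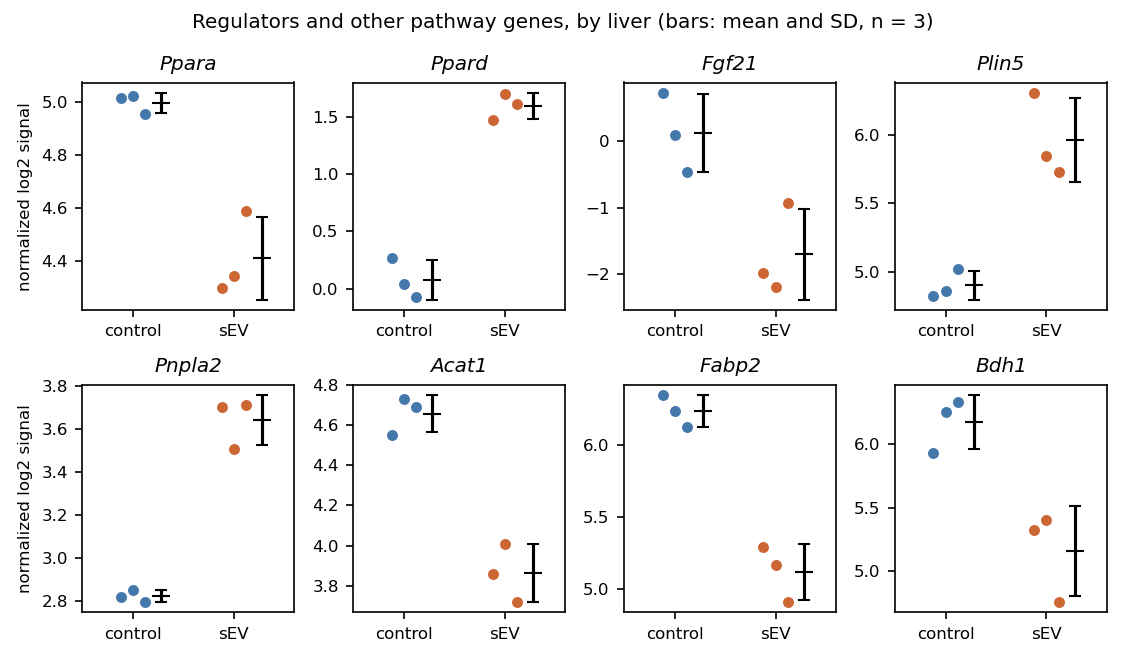
Normalized log2 signal by liver for Ppara and Bdh1 beside 6 genes from the other pathway lists, with bars giving the mean and SD (n = 3). Ppard, Plin5 and Pnpla2 are higher in all sEV livers, and Ppara, Fgf21, Acat1, Fabp2 and Bdh1 are lower.

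Of 23 measured genes from a list on peroxisome biogenesis and membrane, 1 rose and 1 fell, with a median of 0.06. This was 8.7% called, against 16.9% of all genes. Abcd4 rose by 0.84 ± 0.12 (adjusted p of 0.00961). It belongs to the family of peroxisomal transporters but is known for vitamin transport in lysosomes. The list also holds Pmp22 and Mpv17, which are not genes of peroxisome biogenesis. Pex10, part of the import machinery, had a value of -0.45 ± 0.12 with an adjusted p of 0.0493, a call that held in 1 of the 6 fits that leave out 1 liver.

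Markers of cell types moved between the groups as well. For the counts that follow, 8.82% of all genes tested rose and 8.11% fell. All 10 hepatocyte markers were measured and 4 rose, with a summed scaled signal of 3106 to 3408 in controls and 3689 to 4247 in sEV livers. Not all 10 moved alike: Apoa1 was lower in every sEV liver, with a log2 fold change of -0.24 that did not pass (adjusted p of 0.144). Of 10 neutrophil markers 5 rose (100 to 120 and 136 to 150), and of 8 stellate cell markers 4 fell (73.1 to 105 and 53.0 to 74.4). These sums are on the linear scale and so rest mostly on the brightest markers. Csf3r, the brightest neutrophil marker in controls, measured 6.29, 5.91 and 6.18 there and 6.27, 3.36 and 6.05 in sEV livers. Dcn, the brightest stellate cell marker, had means of 6.05 in controls and 5.83 in sEV livers and did not pass. The neutrophil markers Ly6g and Csf3r had negative values of -0.08 and -0.90, and the stellate cell marker Des a positive value of 0.29. Ly6g, Csf3r and Des did not pass. All 8 markers of dividing cells fell (28.9 to 36.2 and 1.74 to 2.40). Of 7 erythroid markers 3 fell (580 to 630 and 197 to 647), and Hba-a1, by far the brightest of them, did not pass. Of 6 adipocyte markers, Cidec and Lep were measured and Lep rose, with a sum of 1.05 to 1.16 and 1.33 to 1.52. Adipoq, Plin1, Cfd and Retn were not among the genes tested. None of 5 cholangiocyte markers passed, none of those at an unadjusted p under 0.05. Of 6 measured T and NK cell markers 2 rose, and of 4 measured B cell markers 1 rose and 3 fell. The part of these cell types in the changes of members was not tested.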

How the data were processed

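RNA of 6 mouse livers, 3 control and 3 sEV, was measured on 1-colour Cy3 Agilent arrays of 62976 spots. The deposited scanner files hold the authors' Feature Extraction output (version 10.7.1.1, per the submitters' processing notes), whose processed signal is a background-corrected intensity per spot. A deposited value table of log2 values made by the authors, whose columns follow quantile normalization of the same arrays, served as an alternative; its making is not described in what was used here. Control and outlier-flagged spots were dropped and replicate spots averaged by probe (56605 probes, 37074 gene names).

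The processed signal was scaled to the 75th percentile of each array and put on the log2 scale. Kept were probes well above background on 3 or more of the 6 arrays, and the brightest probe stood for each gene name. The fit across all 19447 genes used limma 3.58.1 in R 4.3.3, two-sided, with Benjamini-Hochberg adjustment at 0.05 and no covariate, and called 3294 genes, 52.1% of them higher (40.5% with median scaling). An exact permutation test of 3 against 3 cannot go below 0.1. The number of arrays limits the precision.

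Genes named were all members, with values per liver for those called and for Ppara, Creb3l3, Cpt1a, Acaa1a, Acaa1b and Pdk4, and, from the other lists, up to 4 called genes with the largest moderated t. A few genes were left out of the other lists and their counts and are not reported here. The members and lists were chosen with earlier results of these data known. Alternatives were background correction, scaling, the value table, the probe filter, averaged probes, the variance model, array weights, the title number or slide row as a block, and leaving out each liver. Title numbers were not taken as pairs, because deviations of same-numbered livers correlated at 0.02, 0.16 and 0.02. Probe positions are on mm9, per the file headers; promoter windows are from RefSeq on GRCm38.p6. Gene models for mm9 were not used here, so exons and UTRs are not stated.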

Additional observations from a re-analysis of the deposited data

How the results depend on the processing

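The count of genes called was 801 with no filter on dim probes, 2176 with a replicate block on the title number, 721 with slide row as a block, 608 in slide row 1 alone (which rests on sEV liver 1), and 1329 to 2761 with 1 liver left out. Members higher numbered 0 with no filter, array weights, the replicate block, the row block and row 1 alone, and 0 to 1 with 1 liver left out. Members lower numbered 12 with quantile normalization and with the deposited value table, 8 with normexp and with limma's trend and robust options, 2 with no filter, 1 with the row block and in row 1 alone, and 4 to 7 with 1 liver left out. With the replicate block Cd36, Acadl and Bdh1 lost their calls (adjusted p of 0.0566, 0.0547 and 0.0550), leaving 5 lower members, and 2 of 6 arrays correlated best with their own number. The mitochondrial median was -0.24 with quantile normalization and with the value table, and -0.18 to -0.12 with 1 liver left out. The peroxisomal median was -0.059, -0.060 and -0.037 to 0.11 in the same order. Acaa1a turned to 0.025 with averaged probes and ranged from -0.086 to 0.047 with 1 liver left out, and Actb from -0.13 to 0.017. Alb turned to -0.16, -0.13, -0.14 and -0.14 and Gapdh to -0.12, -0.12, -0.30 and -0.30 with quantile normalization, the value table, the row block and row 1 alone. The filter changes the number of genes tested and the left-out livers and row 1 the number of arrays; for the other alternatives the cause was not tested. Among the called members, Vnn1 kept its call under all 18 alternatives and Cd36 under 8. With no filter on dim probes, the 2 lower members were Vnn1 and Vnn3.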
